A study of Mus musculus with 11 samples.

Results

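The stress sensor kinases and transcription factors of the unfolded protein response (UPR) were followed by RNA sequencing in neural stem cells (NSCs) exposed to 4HBP. The group held 10 genes of the 53801 in the tables, chosen by name for their role: the 4 kinases that phosphorylate eIF2alpha (Eif2ak1, Eif2ak2, Eif2ak3 and Eif2ak4), the other sensors of the endoplasmic reticulum (ER), Ern1 and Atf6, and the factors downstream of the sensors, Xbp1, Atf4, Ddit3 and Ppp1r15a. The cells were primary NSCs from the hippocampus of mouse embryos, with no genetic change named, so each culture can hold NSCs and the cells that arise from them. Proliferation medium held the growth factors EGF and bFGF, and differentiation medium lacked them and held more of the supplement B27. In each medium, the cells received 1 µM 4HBP, or EtOH as the control, for 7 days. Written out, 4HBP is 4-hydroxybenzophenone in the paper but 4-hydroxybenzoic acid in the labels, and the short name is kept here. There were 3 libraries with 4HBP and 3 controls in proliferation medium, and 3 with 4HBP and 2 controls in differentiation medium. The labels number the replicates without saying whether they came from separate embryos, so the p-values measure only the spread between these libraries, which may be technical.

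The UPR is the answer of a cell to misfolded protein in the ER, and it starts from 3 sensors in the ER membrane. PERK, the product of Eif2ak3, phosphorylates eIF2alpha, which slows translation in general but lets the Atf4 mRNA be translated. ATF4 then turns on genes of amino acid supply and Ddit3, which encodes CHOP, a factor known for its part in cell death, while Ppp1r15a encodes GADD34, the subunit that brings a phosphatase to eIF2alpha and ends the signal. HRI (Eif2ak1), PKR (Eif2ak2) and GCN2 (Eif2ak4) converge on the same site of eIF2alpha from heme lack or mitochondrial stress, double-stranded RNA and amino acid lack, respectively. IRE1 (Ern1) splices the Xbp1 mRNA, and ATF6 is cut in the Golgi, and the active forms of XBP1 and ATF6 raise ER chaperones and the machinery of ER-associated degradation. Most of these steps are changes of protein, and RNA levels show none of them directly.

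The step of IRE1 that does act on RNA is the removal of a short intron from the Xbp1 mRNA. The stretch below is the site in transcript Xbp1-201 (chr11:5524261-5524322, + strand, GRCm38, exon 4, coding), read from GENCODE. Capitals mark the 26 bases that IRE1 removes, found as the stretch between 2 CNGCAG sites whose loss lengthens the reading frame, from 267 to 371 codons.
Xbp1 splice site: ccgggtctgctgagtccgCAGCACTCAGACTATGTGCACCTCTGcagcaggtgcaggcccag
Of the 4 Xbp1 transcripts in this annotation, and the same number in the deposited tables, 3 hold these bases and 0 hold the spliced junction. The Xbp1 counts below are therefore counts of the whole gene, and they do not part the spliced from the unspliced form.

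Promoters of the members were searched for the elements of these pathways in RefSeq windows (GRCm38.p6) from 250 bases before to 50 bases after the start, on both strands. Of the 10 genes, 9 had a window, Eif2ak4 had 2, and Atf6 had none. The palindromic cAMP response element, TGACGTCA, to which ATF4 and its relatives are known to bind, was in 1 of the 10 member windows, that of Ppp1r15a, against 1.79% of all 32851 windows. The core of the interferon-stimulated response element, GAAA at both ends of any 2 bases, was in 2 member windows, those of Eif2ak2 and Ppp1r15a, against 3.44% of all windows. The stretches that hold 1 of these 2 elements are shown with the element in capitals, those of Ppp1r15a before its start and that of Eif2ak2, which is known as an interferon-stimulated gene, in the first transcribed bases. They lie at chr7:45526449-45526518, chr7:45526269-45526310 and chr17:78882540-78882559, all on the - strand.
Ppp1r15a promoter, interferon element: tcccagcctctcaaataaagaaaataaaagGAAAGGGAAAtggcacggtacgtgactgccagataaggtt
Ppp1r15a promoter, cAMP element: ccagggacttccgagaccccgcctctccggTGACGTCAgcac
Eif2ak2 start: gccggGAAAACGAAAcagaa
The composite element of ATF4 and C/EBP factors (TGATGNAAN, in 3.95% of all windows), the UPR element (TGACGTGG, in 0.676%) and the whole ER stress element (CCAAT and CCACG with 9 bases between, in 0.119%) were in 0 of the member windows. The parts of the last were common, CCAAT in 4 of the 10 member windows against 37.4% of all, and CCACG, which the UPR element holds on its other strand, in 4 against 32.8%. A match in these windows is a description of the letters and not a binding site.

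The total of the expected counts lay between 20822921 and 23438463 per library, so that 3 counts corresponded to 0.128 to 0.144 CPM (counts per 1000000 counts of the library), and every member was far above this, with the lowest count 202 for Ern1. Replicate 3 of 4HBP in proliferation medium stood apart, with a mean chi-square per gene of 23.8 and 21.4 against replicates 1 and 2 and of 5.34 between those. Fold changes without it are given below for part of the members and named genes. Replicates varied more in proliferation medium, with a biological coefficient of variation of 0.117 against 0.0368 in differentiation medium. The markers of NSCs were present in all libraries, with a summed level of 7423 to 8366 CPM in proliferation medium and 4351 to 4525 CPM in differentiation medium. In differentiation medium, most of this sum was Slc1a3, at 2588 to 2741 CPM, whereas Nes was at 87.7 to 99.0 CPM. Markers of astrocytes, the oligodendrocyte lineage and neurons were present as well. Those of neurons summed to 917 to 1024 CPM in proliferation medium and 933 to 966 CPM in differentiation medium. Most of this sum was Map2, at 738 to 855 and 650 to 689 CPM, respectively, and Rbfox3 reached at most 2.96 CPM. The sum of the neuron markers thus mainly follows 1 gene. Cdh5 of endothelial cells was at 0 in all libraries, and the summed markers of microglia, endothelial cells and fibroblasts each reached at most 3.82 CPM.

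The members covered a wide range of RNA levels. To compare genes, levels are given as TPM (transcripts per 1000000, which corrects for length). In proliferation controls, Atf4 was the highest at a mean of 267 TPM, and Ern1 the lowest at 2.44 TPM. Between these came Ddit3 (33.6 TPM), Eif2ak1 (25.7 TPM), Ppp1r15a (23.5 TPM), Eif2ak2 (23.2 TPM), Atf6 (14.9 TPM), Eif2ak3 (12.2 TPM), Xbp1 (11.5 TPM) and Eif2ak4 (9.34 TPM). The libraries' ranges overlapped between neighbours from Ddit3 to Eif2ak2 and between Eif2ak3 and Xbp1, and did not overlap between the other neighbours. With 4HBP in the same medium, Atf4 (415 TPM) and Ddit3 (73.0 TPM) led and Ern1 (2.90 TPM) was again the lowest, and Xbp1 (16.3 TPM) stood above Eif2ak3 (12.7 TPM) with no overlap. In differentiation controls, Atf4 (191 TPM), Ddit3 (35.7 TPM) and Eif2ak1 (33.4 TPM) led, and Eif2ak4 (9.35 TPM) and Ern1 (6.04 TPM) were the lowest. TPM is not compared across media, since mt-Atp8 alone took 13.0% to 15.9% of it in proliferation and 4.48% to 4.79% in differentiation medium.

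The first question was whether 4HBP changed these genes in proliferating NSCs. Atf4 rose by 1.52-fold, Xbp1 by 1.41-fold and Atf6 by 1.20-fold, while the 4 kinase genes and Ern1 were not past the test. Thus 3 of 10 members were called, all higher, against 7.43% of the 14449 genes tested called in either direction and 3.74% called higher (edgeR's quasi-likelihood test, Benjamini-Hochberg adjusted p under 0.05 over all genes tested). The median log2 fold change was 0.20 over the members and 0.0014 over all genes. The same 3 genes had no overlap between the groups, against 31.3% of all genes tested, a share near that background. Fold changes were fitted after TMM scaling, whereas the CPM given for single libraries use the library total.

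**Figure D1:**
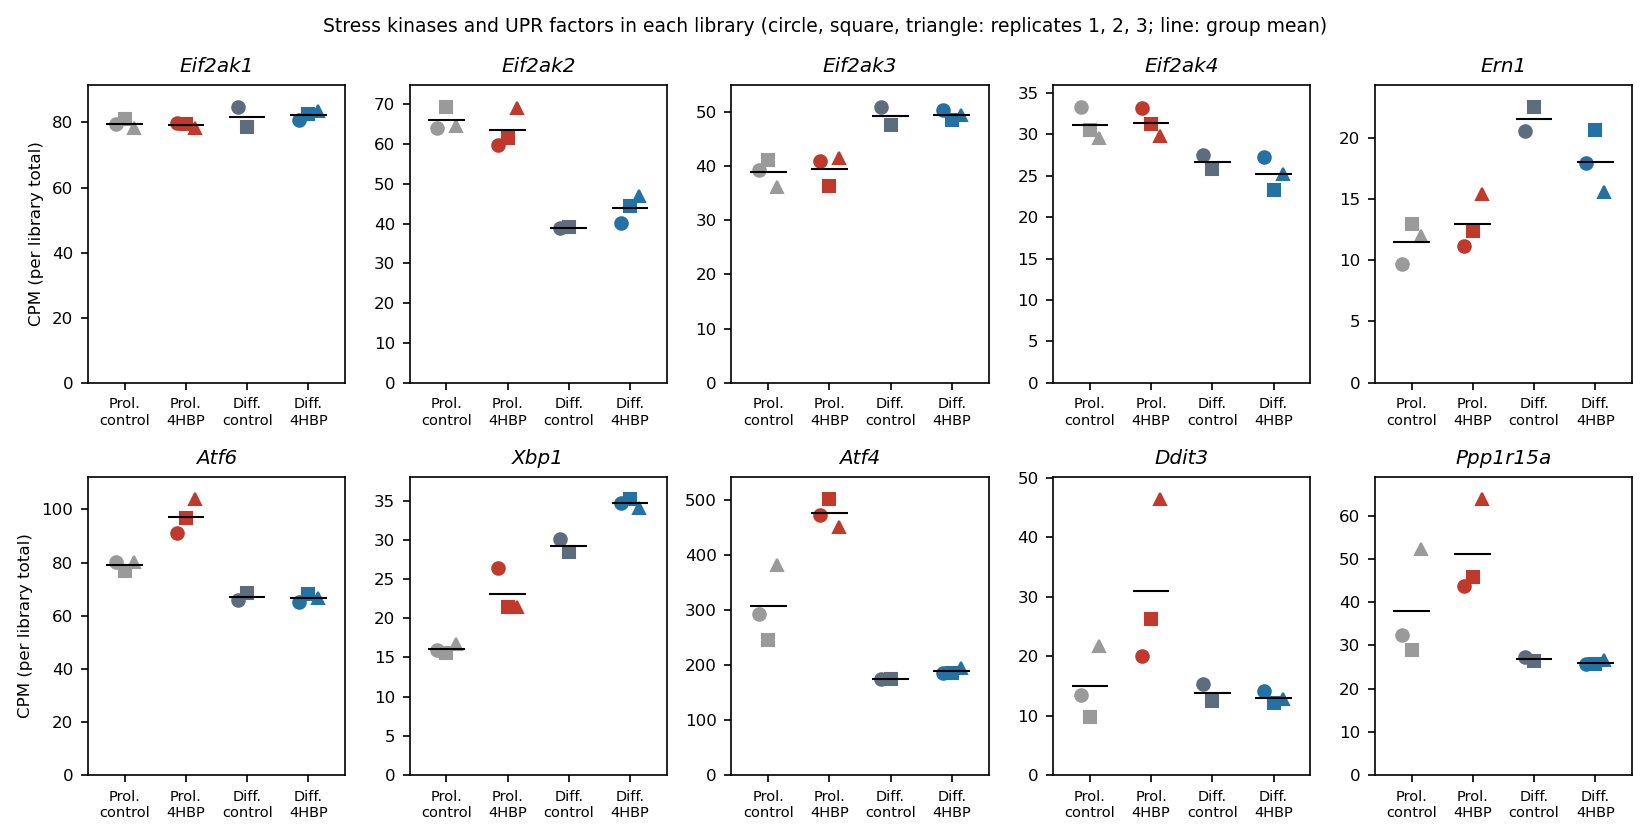
RNA level of the 10 members in each of the 11 libraries, in CPM of the library total, with the group mean as a line and the replicate given by the symbol. In proliferation medium the 4HBP libraries lie above all controls for Atf4, Xbp1 and Atf6, whereas those of Ddit3 and Ppp1r15a overlap with the controls.

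Eif2ak3, the gene of PERK (chr6:70844515-70905245, + strand, GRCm38, as are all positions), had 40.8, 36.3 and 41.4 CPM with 4HBP in replicates 1 to 3 and 39.2, 41.0 and 36.1 CPM in the controls of proliferation medium. The groups overlapped throughout, and the log2 fold change was -0.0068 ± 0.085 (SE), with a 95% interval of -0.20 to 0.18 (edgeR, adjusted p = 0.973). Its upper bound corresponded to a 1.14-fold rise. In differentiation medium, Eif2ak3 had 50.2, 48.3 and 49.3 CPM with 4HBP and 50.9 and 47.6 CPM in the controls, a log2 fold change of 0.0073 with an interval of -0.10 to 0.11 (edgeR, adjusted p = 0.964). The Eif2ak3 RNA thus had group ranges that overlapped in both media.

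Eif2ak2, the gene of PKR (chr17:78852564-78882573, - strand), had 59.8, 61.4 and 69.1 CPM with 4HBP and 64.1, 69.4 and 64.4 CPM in controls of proliferation medium, again overlapping (log2 fold change -0.09, interval -0.26 to 0.08). In differentiation medium, the 3 libraries with 4HBP (40.2, 44.5 and 47.0 CPM) lay above both controls (38.8 and 39.2 CPM). That log2 fold change of 0.18 ± 0.06 (SE) did not pass the test (edgeR, adjusted p = 0.184). Eif2ak1, the gene of HRI (chr5:143817788-143904251, + strand), lay between 78.3 and 80.9 CPM in all 6 proliferation libraries and between 78.5 and 84.9 CPM in the differentiation libraries. The log2 fold changes of Eif2ak1 were -0.04 and 0.02 in the respective media. Eif2ak4, the gene of GCN2 (chr2:118388618-118475234, + strand), lay between 29.6 and 33.3 CPM in proliferation medium and between 23.2 and 27.5 CPM in differentiation medium, with log2 fold changes of -0.02 and -0.07. For the 4 kinases together, the summed level was 209 to 219 CPM with 4HBP and 208 to 222 CPM in proliferation controls.

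Ern1, which encodes IRE1 (chr11:106394650-106487852, - strand), had 11.1, 12.4 and 15.4 CPM with 4HBP and 9.65, 12.9 and 11.9 CPM in controls of proliferation medium, with a log2 fold change of 0.13 and a wide interval, from -0.21 to 0.48, or of 0.02 without 4HBP replicate 3. In differentiation medium it had 17.9, 20.6 and 15.6 CPM with 4HBP and 20.5 and 22.5 CPM in controls, and the groups overlapped. That log2 fold change was -0.25 with an interval of -0.46 to -0.04, and it did not pass the test (edgeR, adjusted p = 0.221). Atf6 (chr1:170704674-170867771, - strand) gave a smaller spread. Its level was 91.2, 96.8 and 104 CPM with 4HBP and 80.3, 76.7 and 80.2 CPM in proliferation controls, so each library with 4HBP was above each control. The log2 fold change was 0.27 ± 0.07 (SE) with an interval of 0.12 to 0.41 (edgeR, adjusted p = 0.0431). In differentiation medium the levels of Atf6 were 65.1 to 68.3 CPM with 4HBP and 66.0 to 68.4 CPM in controls, a log2 fold change of -0.0037 with an interval of -0.10 to 0.09.

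Xbp1 (chr11:5520659-5525893, + strand) was the member that passed the test in both media. In proliferation medium it had 26.4, 21.4 and 21.4 CPM with 4HBP and 15.9, 15.5 and 16.7 CPM in controls, a log2 fold change of 0.50 ± 0.12 (SE, interval 0.22 to 0.77, edgeR adjusted p = 0.0419). In differentiation medium it had 34.7, 35.2 and 34.1 CPM with 4HBP against 30.1 and 28.4 CPM in controls, a log2 fold change of 0.25 ± 0.06 (SE, interval 0.13 to 0.38, edgeR adjusted p = 0.0321). The groups were apart in each medium, and the rise was 1.41-fold in the former and 1.19-fold in the latter. These are the RNA of the whole gene, as the site printed above is not resolved.

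Atf4 (chr15:80255184-80257541, + strand) was the member with the highest counts. It had 472, 501 and 451 CPM with 4HBP and 292, 244 and 382 CPM in proliferation controls, a log2 fold change of 0.60 ± 0.15 (SE, interval 0.27 to 0.93, edgeR adjusted p = 0.0414). All libraries with 4HBP were above all controls, and control replicate 3 was the control nearest to them. In differentiation medium the level of Atf4 was 184, 185 and 194 CPM with 4HBP and 175 CPM in both controls. There the groups did not overlap either, but the log2 fold change was only 0.11 ± 0.04 (SE) and did not pass the test (edgeR, adjusted p = 0.162).

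Ddit3, the gene of CHOP (chr10:127290774-127296288, + strand), had the largest fitted fold change of the members, yet did not pass the test. It had 20.0, 26.2 and 46.5 CPM with 4HBP and 13.5, 9.71 and 21.7 CPM in proliferation controls, a log2 fold change of 1.00 ± 0.33 (SE, interval 0.26 to 1.74, edgeR adjusted p = 0.0991). The groups overlapped, as control replicate 3 lay above 4HBP replicate 1, and 4HBP replicate 3 was by far the highest. Without 4HBP replicate 3 the log2 fold change was 0.62 (edgeR, adjusted p = 0.168), and without control replicate 3 it was 1.38 (edgeR, adjusted p = 0.0476), which passed. Ddit3 also passed without the filter on low counts, with all 11 libraries in 1 fit and with a replicate block. By limma in place of edgeR, it passed at an unadjusted p with a fold threshold. It did not pass with library totals, with DESeq2 or with limma at an adjusted p. In differentiation medium Ddit3 lay at 14.2, 12.1 and 12.7 CPM with 4HBP and 15.3 and 12.4 CPM in controls (log2 fold change -0.08, interval -0.30 to 0.14). A second locus of the same symbol overlaps this gene and reached at most 3.92 counts, so it was left out.

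Ppp1r15a, the gene of GADD34 (chr7:45522916-45526268, - strand), followed the order of Ddit3 within each group of proliferation medium. Across these groups the order differed, as control replicate 3 lay above every 4HBP library other than 4HBP replicate 3. Ppp1r15a had 43.6, 45.8 and 63.9 CPM with 4HBP and 32.4, 28.9 and 52.3 CPM in proliferation controls. Replicate 3 was again the highest in both groups. The log2 fold change of Ppp1r15a was 0.39 ± 0.21 (SE, edgeR adjusted p = 0.296). Without control replicate 3 its log2 fold change was 0.71 (edgeR, adjusted p = 0.0351), and without 4HBP replicate 3 it was 0.23. In differentiation medium all 5 libraries lay between 25.6 and 27.2 CPM.

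The rises of Atf4, Xbp1 and Atf6 in proliferation medium lay close to the threshold, and leaving out 1 library often ended the call although the fold change was kept. Atf4 did not pass without 4HBP replicate 1 (edgeR, adjusted p = 0.0884), 4HBP replicate 2 (0.112), control replicate 1 (0.160) or control replicate 2 (0.144), and its log2 fold change ranged from 0.47 to 0.80. Xbp1 passed only without 4HBP replicate 3, with a log2 fold change of 0.57 (edgeR, adjusted p = 0.0185), and otherwise had log2 fold changes of 0.37 to 0.54 with adjusted p from 0.0693 to 0.156. Atf6 likewise passed only without 4HBP replicate 3 (edgeR, adjusted p = 0.0446), and otherwise had log2 fold changes of 0.25 to 0.29 with adjusted p from 0.0690 to 0.169. With 4HBP replicate 3 left out, the same 3 members were called. In differentiation medium, Xbp1 did not pass without any 1 of the 5 libraries, with log2 fold changes of 0.22 to 0.29 and adjusted p from 0.0561 to 0.188.

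**Figure D2:**
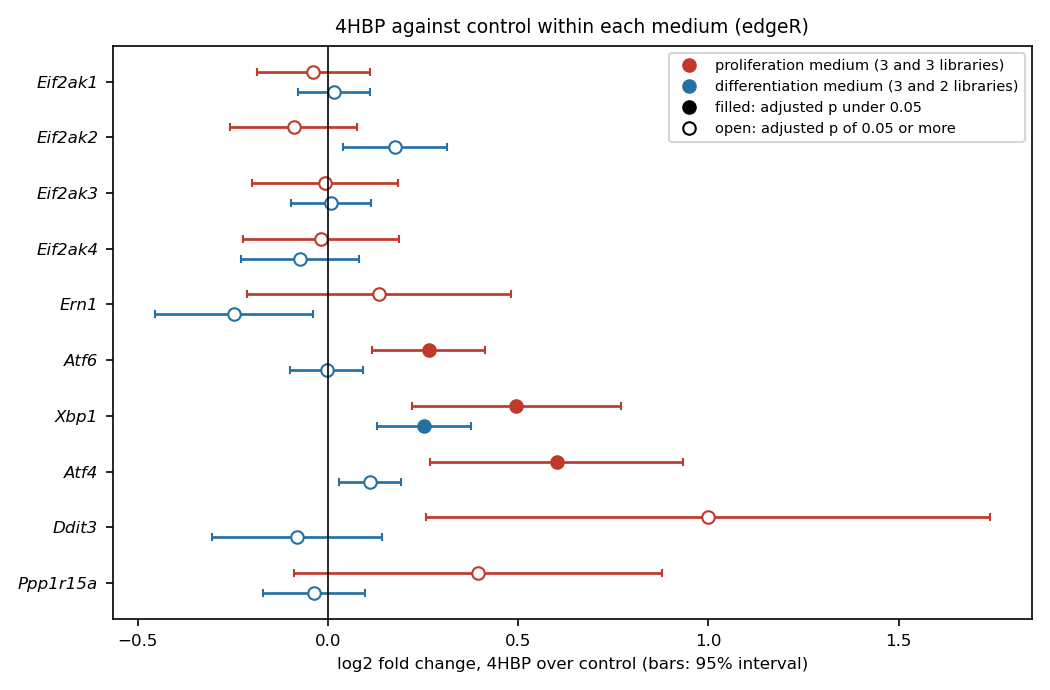
Fitted log2 fold change of each member, 4HBP over control, with its 95% interval, in proliferation (red) and differentiation medium (blue), filled where the adjusted p was under 0.05. The intervals of the eIF2alpha kinase genes hold 0 other than that of Eif2ak2 in differentiation medium. Atf6, Xbp1 and Atf4 lie above 0 in proliferation medium, and Ddit3 has the widest interval, 0.26 to 1.74. In differentiation medium the intervals of Xbp1 and Atf4 lie above 0 and that of Ern1 below 0.

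Differentiating NSCs thus gave 1 called member of 10, Xbp1, against 2.55% of the 15484 genes tested, and a median log2 fold change of 0.0018 over the members and -0.0010 over all genes. Of the members, 3 had no overlap between the groups, Eif2ak2, Xbp1 and Atf4, against 32.9% of all genes, a share near that background.

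The RNAs of Ddit3 and Ppp1r15a were also set against that of Atf4 in the same library. For 100 CPM of Atf4 there were 4.24, 5.23 and 10.3 CPM of Ddit3 in the proliferation libraries with 4HBP and 4.63, 3.97 and 5.69 CPM in their controls. Replicate 3 of 4HBP thus held about as much Atf4 as its fellows, the least of the group, but the most Ddit3. In differentiation medium the same ratio was 7.69, 6.56 and 6.55 with 4HBP and 8.76 and 7.08 in controls, above all proliferation libraries other than 4HBP replicate 3. Ppp1r15a gave 9.25, 9.14 and 14.2 CPM for 100 CPM of Atf4 with 4HBP and 11.1, 11.8 and 13.7 CPM in proliferation controls.

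**Figure D3:**
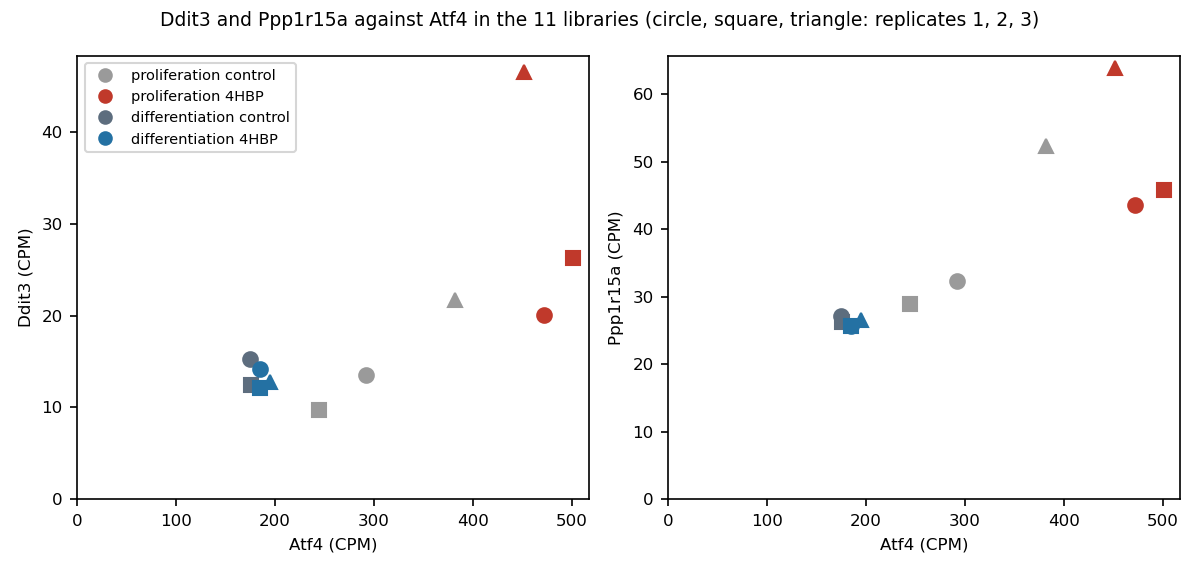
CPM of Ddit3 (left) and Ppp1r15a (right) against that of Atf4 in the 11 libraries, coloured by group, with the replicate given by the symbol. The differentiation libraries lie together at low Atf4 (175 to 194 CPM), and 4HBP replicate 3 in proliferation medium lies highest for both genes, at 46.5 CPM of Ddit3 and 63.9 CPM of Ppp1r15a.

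The genes around the members were described by lists of known partners and targets. Among targets of ATF4 and CHOP, 18 of 26 tested genes rose with 4HBP in proliferation medium and 0 fell, against 3.74% higher among all genes, with a median log2 fold change of 0.84. The largest rises by log2 fold change were those of Gdf15 (3.03 ± 0.37, SE), a stress cytokine, Nupr1 (2.58 ± 0.25), a stress-induced chromatin protein, Trib3 (1.79 ± 0.38), a pseudokinase that binds ATF4, and Tnfrsf10b (1.69 ± 0.23), the death receptor known as a CHOP target (edgeR, adjusted p of 0.00479, 0.0023, 0.027 and 0.00656). The summed level of all 27 genes of the list was 3939, 4732 and 5136 CPM with 4HBP and 2539, 2241 and 2761 CPM in controls. The groups were thus far apart. Without 4HBP replicate 3, 17 genes of the list rose and 1 fell. The log2 fold changes of Gdf15, Nupr1, Trib3 and Tnfrsf10b were then 2.82, 2.36, 1.31 and 1.49. Leaving out control replicate 1 or 2 or 4HBP replicate 2 reduced the number that rose to 9, 11 and 11. The 8 genes that were not called included Chac1, a glutathione-degrading enzyme, and Atf3, a stress-induced bZIP factor, which had log2 fold changes of -0.18 and -0.02.

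Factors of the bZIP family that pair or overlap in role with ATF4, CHOP or XBP1, listed with Trib3, gave 6 of 12 higher and 0 lower in proliferation medium. Their median log2 fold change was 0.69. The largest were Creb3l1 (log2 fold change 2.07 ± 0.28, SE), an ER-bound relative of ATF6, Atf5 (1.89 ± 0.14), a close relative of ATF4, Trib3, which both lists hold, and Cebpd (1.28 ± 0.27). Their adjusted p-values from edgeR were 0.00656, 0.000882, 0.027 and 0.0264. The summed level of the 12 genes was 1207, 1346 and 1582 CPM with 4HBP and 724, 662 and 853 CPM in controls. Atf3 too is in this list and in that of the ATF4 and CHOP targets, so the counts of both are partly of the same genes. The same number, 6, rose without 4HBP replicate 3, and 1, 2, 3 and 9 without control replicate 1, control replicate 2, 4HBP replicate 2 and control replicate 3, respectively. Without 4HBP replicate 3, Creb3l1, Atf5 and Cebpd were at 1.75, 1.75 and 1.04 on the log2 scale.

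Targets of XBP1 and ATF6 gave a single call in the same comparison. Of 25 tested chaperones and degradation factors, 0 were higher and 1 was lower, Pdia4, a disulfide isomerase, with a log2 fold change of -0.47 ± 0.10 (SE, edgeR adjusted p = 0.0239). Pdia4 was not called without 4HBP replicate 2 or without any 1 of the 3 controls, and without 4HBP replicate 1, 4 genes of the list were lower. The median was -0.13. Hspa5, the gene of the chaperone BiP that holds the sensors inactive, had a log2 fold change of -0.11 (edgeR, adjusted p = 0.667). The summed level was 4474, 3897 and 3518 CPM with 4HBP and 4617, 4476 and 4973 CPM in controls. In differentiation medium, 3 of 26 were higher and 0 lower, against 1.26% higher among all genes. These were Hyou1 (log2 fold change 0.25 ± 0.04, SE), Hspa5 (0.20 ± 0.03) and Calr (0.15 ± 0.03), all ER chaperones (edgeR, adjusted p of 0.00442, 0.00246 and 0.0138). Without control replicate 1 of that medium, 1 of the 3 was called, and without 4HBP replicate 2, 4HBP replicate 3 or control replicate 2, 2 were.

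**Figure D4:**
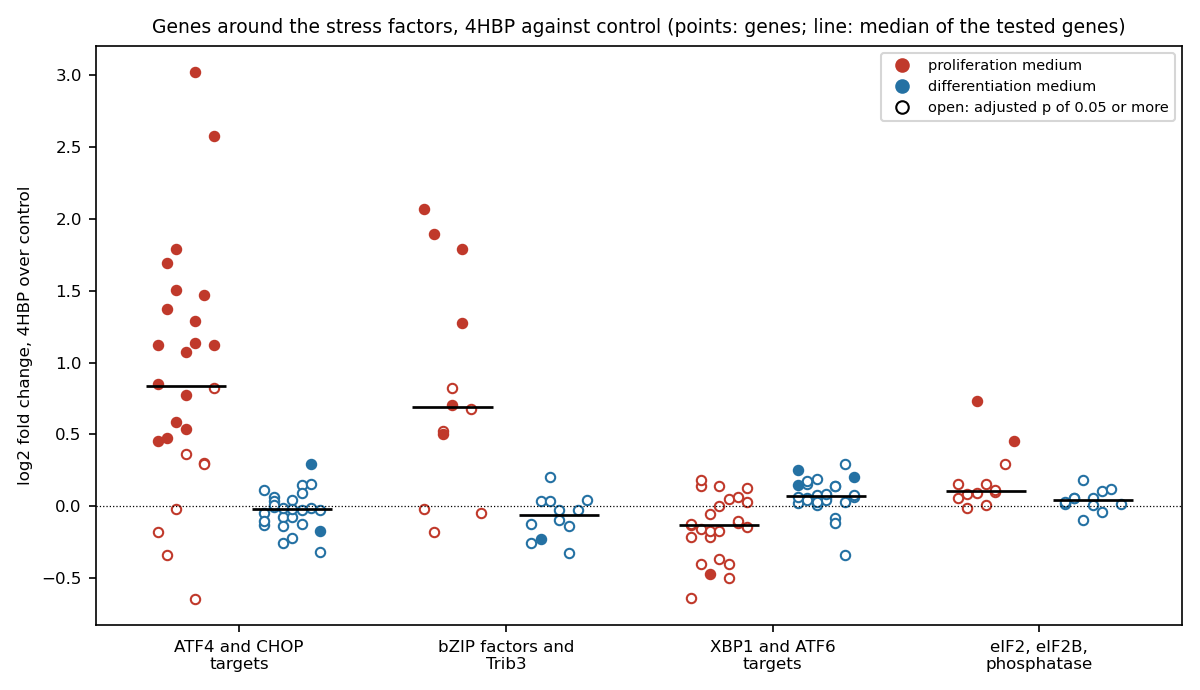
Log2 fold change with 4HBP of the tested genes in 4 lists around the members, in proliferation (red) and differentiation medium (blue), filled where the adjusted p was under 0.05, with the median as a line. In proliferation medium the targets of ATF4 and CHOP spread upwards to 3.03 with a median of 0.84, whereas those of XBP1 and ATF6 have a median of -0.13.

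The machinery on which the kinases act was described in the same way, with 3.74% of all genes higher and 3.69% lower in proliferation medium as the background. Of 12 genes of eIF2, eIF2B and the eIF2alpha phosphatase, 2 rose in proliferation medium, Eif2b3 (log2 fold change 0.74 ± 0.13, SE) and Eif2s2 (0.45 ± 0.10), a subunit of the exchange factor and of eIF2 itself (edgeR, adjusted p of 0.0137 and 0.0345). Among 10 partners and inhibitors of the kinases, 1 rose, Adar (log2 fold change 0.36 ± 0.09, SE, edgeR adjusted p = 0.0488), an RNA-editing enzyme that keeps double-stranded RNA from PKR. Adar was at 0.26 without 4HBP replicate 3. Of 10 partners of IRE1 and ATF6, 0 were called, with Mbtps2, which cuts ATF6, at 0.28 (edgeR, adjusted p = 0.111) and Pdia6 at -0.37 (0.188) on the log2 scale, the latter at -0.19 without 4HBP replicate 3. Of 5 RNAs known to be cut by IRE1, 0 were called by edgeR, with Sparc at a log2 fold change of -0.53 (adjusted p = 0.0585) and Col6a1 at -0.51 (0.160). Without 4HBP replicate 3, Sparc was at -0.36 and passed (edgeR, adjusted p = 0.0238), and Col6a1 was at -0.32. Of 10 interferon-stimulated genes, the class to which Eif2ak2 belongs, 0 were called, with Irf9 at 0.47 (edgeR, adjusted p = 0.0859) and Oasl2 at 1.60 (0.137), which were 0.30 and 0.57 without 4HBP replicate 3. In differentiation medium, these lists gave 1 called gene in the kinase partners, Hspa5, 1 in the RNAs cut by IRE1, Sparc (log2 fold change -0.28 ± 0.04, SE, edgeR adjusted p = 0.00142), and 0 in the other 3. There the ATF4 and CHOP targets gave 1 higher, the cystine transporter Slc7a11 (0.29 ± 0.06), and 1 lower, the amino acid transporter Slc7a5 (-0.17 ± 0.04), and the bZIP list gave 1 lower, Atf5 (-0.23 ± 0.05). The background in differentiation medium was 1.26% of all genes higher and 1.29% lower.

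Among the markers of cell types, only those of astrocytes held called genes with 4HBP in proliferation medium. There, 4 of 6 astrocyte markers fell, Gja1, Aldoc, Gfap and Aqp4, against 3.69% lower among all genes. The summed level of the astrocyte list was 3042 to 3751 CPM with 4HBP and 4452 to 5588 CPM in controls. Of the markers of NSCs, neurons and the oligodendrocyte lineage, 0 of 8, 0 of 7 and 0 of 6 were called. The markers of dividing cells summed to 569, 672 and 357 CPM in 4HBP replicates 1 to 3 and 681 to 825 CPM in controls, with 0 of 5 called by edgeR. In bulk RNA, fewer cells of a type and less RNA per cell cannot be told apart, and the part of these shifts in the values of the members was not tested.

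**Figure D5:**
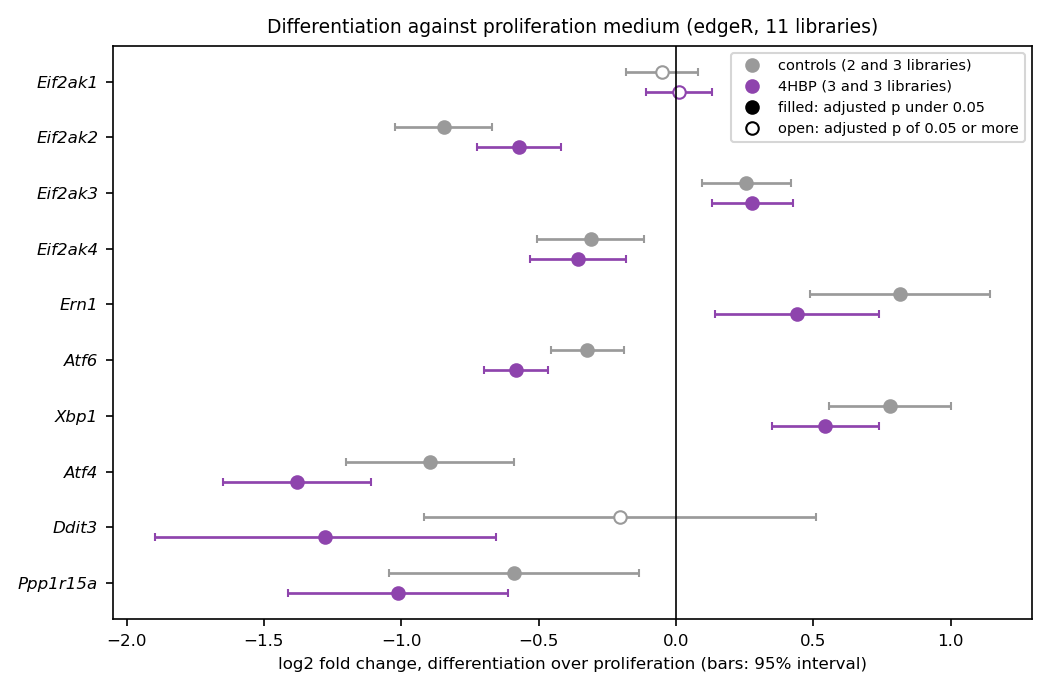
Fitted log2 fold change of each member, differentiation over proliferation medium, with its 95% interval, in controls (grey) and with 4HBP (purple), filled where the adjusted p was under 0.05. Ern1, Xbp1 and Eif2ak3 lie above 0 and Eif2ak2, Eif2ak4, Atf6, Atf4 and Ppp1r15a below it in both, and Eif2ak1 lies at 0.

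Whether the response to 4HBP differed between the media was tested as an interaction over the 11 libraries. Of the members, 0 of 10 passed, against 4.49% of the 15920 genes tested. The fitted differences, proliferation minus differentiation medium on the log2 scale, were 1.07 ± 0.43 (SE) for Ddit3, 0.48 ± 0.18 for Atf4, 0.26 ± 0.08 for Atf6 and -0.27 ± 0.11 for Eif2ak2 (edgeR, p of 0.0282, 0.0209, 0.00694 and 0.0238; adjusted p of 0.191, 0.165, 0.0934 and 0.175). Unadjusted, these 4 were under 0.05. For Xbp1 the difference was 0.24 with an interval of -0.06 to 0.53. Without control replicate 3 of proliferation medium, 3 members passed, Atf4 at 0.68, Ddit3 at 1.45 and Ppp1r15a at 0.73 (edgeR, adjusted p of 0.00528, 0.0468 and 0.0271), and without 4HBP replicate 3, 0 passed, with Ddit3 at 0.69, Atf4 at 0.55 and Ppp1r15a at 0.27, against 0.42 for Ppp1r15a with all libraries. Among the lists, 14 of 26 targets of ATF4 and CHOP had a higher effect in proliferation medium, 5 of 12 in the bZIP list, and 1 of 26 targets of XBP1 and ATF6 had a lower one, against 2.01% higher and 2.48% lower among all genes.

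The effect of the medium itself was compared in controls and in cells with 4HBP. In controls, 8 of 10 differed between differentiation and proliferation medium, against 61.4% of the 15920 genes tested, and 3 of 10 were higher, against 30.8%, so that these shares are near those of all genes. Ern1 rose by 1.76-fold (log2 fold change 0.82 ± 0.15, SE), Xbp1 by 1.72-fold (0.78 ± 0.10) and Eif2ak3 by 1.19-fold (0.26 ± 0.08) in differentiation medium (edgeR, adjusted p of 0.000445, 2.34e-05 and 0.00955). Lower in differentiation medium, on the log2 scale, were Atf4 (-0.90 ± 0.14), Eif2ak2 (-0.85 ± 0.08), Ppp1r15a (-0.59 ± 0.21), Atf6 (-0.32 ± 0.06) and Eif2ak4 (-0.31 ± 0.09), with adjusted p of 0.000112, 1.48e-06, 0.0271, 0.000506 and 0.00931 from edgeR. Ddit3 had a log2 fold change of -0.20 with an interval of -0.92 to 0.51, and Eif2ak1 one of -0.05 with an interval of -0.18 to 0.08. Of the ER sensors, Ern1 and Eif2ak3 were thus higher and Atf6 lower. Eif2ak3 did not pass without differentiation control replicate 1 (log2 fold change 0.22, edgeR adjusted p = 0.0908), nor Eif2ak4 without replicate 2 (-0.27, adjusted p = 0.0995). Ppp1r15a did not pass without either of these (-0.60 and -0.57, edgeR adjusted p of 0.0958 and 0.114) or without proliferation control replicate 3 (-0.28, adjusted p = 0.0977), nor with library totals in place of TMM (-0.50, adjusted p = 0.0609).

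With 4HBP, 9 of 10 members differed between the media, against 67.2% of all genes tested, and 3 of 10 were higher, against 33.3%. Ddit3 was the member called here and not in controls, at -1.28 ± 0.29 (SE, edgeR adjusted p = 0.00149), or -0.90 without 4HBP replicate 3 of proliferation medium (adjusted p = 0.0033), and the difference between these values is the interaction given above, which did not pass. Atf4 was -1.38 ± 0.12, Ppp1r15a -1.01 ± 0.19, Atf6 -0.58 ± 0.05, Eif2ak2 -0.57 ± 0.07 and Eif2ak4 -0.36 ± 0.08, whereas Xbp1 was 0.54 ± 0.09, Ern1 0.44 ± 0.14 and Eif2ak3 0.28 ± 0.07 on the same scale. The comparisons of media use the same libraries as those of 4HBP, so their values are set side by side and not taken as separate evidence. Ern1 did not pass without proliferation 4HBP replicate 1 (0.36, edgeR adjusted p = 0.0545) or differentiation 4HBP replicate 2 (0.33, adjusted p = 0.0696).

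Around the members, the eIF2 list had 7 of 12 genes lower and 1 higher in differentiation controls. Eif2s2 (log2 fold change -1.03 ± 0.10, SE), Eif2s3x (-1.01 ± 0.10) and Eif2s1 (-0.66 ± 0.10), the 3 subunits of eIF2, were lower, and the phosphatase subunit Ppp1cb was higher (0.54 ± 0.06). Targets of ATF4 and CHOP had 10 of 26 lower and 5 higher, led by Nupr1 (log2 fold change -3.30), Trib3 (-1.87), Chac1 (-1.76) and Shmt2 (-1.58), a mitochondrial enzyme of serine use. Targets of XBP1 and ATF6 had 8 higher and 7 lower of 26, with Sdf2l1 (1.07) and Dnajc3 (0.95), the inhibitor of PERK known as P58IPK, among the higher and Pdia6 (-0.63) among the lower. The bZIP list had 4 higher and 4 lower of 12, with Creb3l1 (1.94), Creb3l2 (1.71) and Atf5 (1.37) higher. Of the partners of IRE1 and ATF6, 4 of 10 were higher and 3 lower, with Map3k5, the kinase ASK1 that IRE1 engages, at 1.40 and Tmbim6, an ER membrane protein, at 0.68. Of the kinase partners, 2 of 10 were higher and 2 lower. Of the 6 RNAs cut by IRE1, 4 were higher and 1 lower, with Col6a1 at -4.67. Of 12 interferon-stimulated genes, 2 were higher, among them Oasl2 (2.17), and 2 were lower, with Ifit3 at -1.22. The higher counts of the XBP1 and ATF6 targets, the RNAs cut by IRE1 and the interferon-stimulated genes hold Derl3, Pdgfrb and Usp18, respectively. These 3 genes passed the filter on low counts only through the differentiation libraries, where they are high, and no fold is given for them. Derl3 had 0.143 to 0.239 CPM in proliferation controls and 0.512 to 0.958 CPM in differentiation controls, Pdgfrb 0.239 to 1.38 and 28.0 to 30.5 CPM, and Usp18 0.239 to 0.428 and 1.11 to 1.19 CPM. In their 3 lists, 7 of 25, 3 of 5 and 1 of 10 genes that also passed the filter in proliferation medium were higher. All these are log2 fold changes from edgeR with an adjusted p under 0.05, among 30.8% of all genes that were higher and 30.6% that were lower. In the same contrast, all 8 NSC markers and all 5 markers of dividing cells fell, with median log2 fold changes of -1.22 and -2.91. Of the astrocyte markers, 5 of 6 rose and 1, Gfap, fell, from 2088 to 2541 CPM to 1439 to 1742 CPM. Of the oligodendrocyte lineage markers, 5 of 6 rose, and of the neuron markers 4 of 7 rose and 1 fell. The part of these markers in the values of the members was not tested.

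For the members whose pattern over the 11 libraries was compared with all other tested genes, likeness was the mean absolute difference of the centred log2 CPM. The genes most like Ddit3 were Fgf2, Cebpd and Cebpg, at 0.16, 0.18 and 0.19. Atf4 was most like Osbpl6, Cbarp and Shisa5 (0.07 to 0.08), Eif2ak3 most like Ppp1r13b, Rab3gap1 and Slc39a9 (0.03 to 0.04), Eif2ak2 most like Notch1, Fam171b and Vps13a (0.05 to 0.06), and Xbp1 most like Hgh1, Alkbh7 and Sh2b3 (0.09 to 0.10). None of the 10 members was among the 3 genes nearest to any of these 5. All libraries share the contrast of the media, so these distances describe the patterns and carry no test.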

How the data were processed

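The 11 libraries were made with a stranded mRNA kit from total RNA of NSCs and sequenced in pairs. The authors trimmed the reads with cutadapt and quantified them with RSEM 1.3.0 and Bowtie2 2.2.9 on mm10 (GRCm38). They deposited, for each library, expected counts per gene (RSEM's estimated counts, not normalized) and the TPM and FPKM that RSEM derived from them by length and depth. The deposited FPKM enters no result. Groups and replicate numbers were taken from the sample labels.

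Here, expected counts were rounded, filtered by filterByExpr, scaled by TMM and tested with edgeR 4.0.16 (glmQLFit and glmQLFTest, two-sided, R 4.3.3), with Benjamini-Hochberg adjustment over all genes tested. The 4HBP comparisons were fitted within each medium, as the spread differed, and the interaction and the media contrasts on all 11 libraries with 4 group means. All 10 members passed the filter in each fit. CPM uses the library total. The SE of a log2 fold change was derived from the test's F statistic. The code was tested on simulated counts. Symbols and positions are those of GENCODE vM21, which is of the same build. The members and gene lists were chosen with earlier results of these data known. The text names all members and, from each other list and each comparison of 4HBP or of media in controls, at most 4 called genes with the largest change, or else the 2 with the smallest p. Chac1, Atf3, Hspa5, the astrocyte markers in proliferation medium and Gfap between media were named after their values were seen. The values of 1 gene of the lists are not reported here. For likeness, the 3 nearest genes are named for 5 members.

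Alternatives were library totals, DESeq2 1.42.0, no filter, limma 3.58.1 on log2(CPM+1), other sets of libraries, voom weights, a replicate block, and each library left out. No duplicate libraries were found (mean chi-square per gene of 2.53 or more between replicates).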

Additional observations from a re-analysis of the deposited data

Results flagged for a closer look

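The effect of 4HBP differed between the media by the interaction test (edgeR, adjusted p under 0.05) for genes of 3 lists around the members, and for 0 of the 10 members. Among the targets of ATF4 and CHOP, 14 of 26 genes had a higher fold change in proliferation medium, with a median difference of 0.91 on the log2 scale, and 8 did without either differentiation control and 19 without proliferation control replicate 3, the extremes when 1 library was left out. Among the bZIP factors, 5 of 12 had a higher fold change in proliferation medium, with a median difference of 0.74, and 2 did without differentiation control replicate 2 and 8 without proliferation control replicate 3. Among the targets of XBP1 and ATF6, 1 of 26 had a lower one, with a median difference of -0.22, and 7 did without proliferation 4HBP replicate 1, and 0 without proliferation 4HBP replicate 2, proliferation control replicate 1 or 2, or any 1 of the 5 differentiation libraries. No group of the members had 4 or more libraries, so single libraries that stand apart were not tested for.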

How the results depend on the processing

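Of the members' values under the alternatives, 711 kept their direction and their side of the threshold, 52 no longer passed, 13 newly passed and 34 changed sign, none of them called in either setting. With 4HBP in proliferation medium, Eif2ak3 (-0.0068) was 0.026 with library totals and 0.025 with limma at either threshold (-0.054 to 0.048 with 1 library left out), and Eif2ak4 (-0.02) was 0.012 with each of these (-0.080 to 0.043). In differentiation medium, Atf6 (-0.0037) was 0.0039 with 11 libraries in 1 fit, and with 1 library left out Atf6 ranged from -0.033 to 0.031, Eif2ak1 from -0.032 to 0.069, Eif2ak3 from -0.034 to 0.052 and Ddit3 from -0.22 to 0.070. For the interaction, Eif2ak3 was 0.025 with library totals and 0.023 with limma at either threshold (-0.067 to 0.024 with 1 library left out), and Eif2ak4 ranged from -0.012 to 0.11. Between media in controls, Eif2ak1 was 0.037 with library totals and 0.035 with limma at either threshold (-0.095 to 0.0054 with 1 library left out), and Ddit3 was 0.068 with the replicate block (-0.44 to 0.17). With 4HBP, Eif2ak1 was -0.0065 without the filter (-0.027 to 0.036). In proliferation medium, 1074 genes were called for 4HBP, and 1623 with DESeq2, 18 with limma, 651 with limma at an unadjusted p with a fold threshold, 2668 with all 11 libraries in 1 fit and 107 to 1429 with 1 library left out (107, 137, 290 and 705 without control replicates 1 and 2 and 4HBP replicates 2 and 1). There, 3 members were called, 0 with limma and 0 to 3 with 1 library left out. The members called also changed where their number was kept. Without the filter they were Xbp1, Atf4 and Ddit3, and without control replicate 3 Atf4, Ddit3 and Ppp1r15a. Limma at an unadjusted p with a fold threshold called Atf4 and Ddit3, and 11 libraries in 1 fit added Ddit3 to the 3. In differentiation medium, 395 genes were called, and 778 without the filter, 0 with limma (66 at an unadjusted p with a fold threshold, 42 of them higher, against 195 of 395), 0 with 11 libraries in 1 fit and 77 to 288 with 1 library left out (77 without control replicate 1). There, 1 member was called, Xbp1, and 0 with DESeq2, either limma threshold, 11 libraries or 1 library left out. By edgeR at an unadjusted p under 0.05, 2460 genes passed there. For the interaction, 715 genes were called, and 1078 with DESeq2, 1616 without the filter, 264 with limma and 124 to 1100 with 1 library left out (124 without either differentiation control), with 0 members called, 3 without the filter and 0 to 3 with 1 library left out (3 without proliferation control replicate 3). Between media, limma at an unadjusted p with a fold threshold called 5219 genes in controls (3237 higher, 1982 lower, against 4902 and 4869 of 9771) and 5697 of 10692 with 4HBP, and 4 members of 8 and 3 of 9. With 1 library left out, 6 to 8 members were called in controls and 8 to 9 with 4HBP. The replicate block gave 534 genes and 1 member, Ddit3, in proliferation medium, 745 genes in differentiation medium and 1 member for the interaction. The replicate numbers carried no pairing by the labels, and the deviations of libraries of the same number correlated at -0.030, -0.108 and -0.129 in proliferation and at 0.0956 and -0.0102 in differentiation medium. The cause of these shifts was not tested. Depth limited the members little, as their lowest count was 202.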

Other observations

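The lists around the members were also compared between differentiation and proliferation medium in the libraries with 4HBP. Of the 26 targets of ATF4 and CHOP, 22 were lower and 2 higher with 4HBP, and 10 and 5 in controls. The bZIP factors had 8 of 12 lower and 2 higher with 4HBP, and 4 each way in controls. The eIF2 list had 9 of 12 lower and 1 higher, and 7 and 1 in controls, and the interferon-stimulated genes had 5 of 12 lower and 0 higher, and 2 each way in controls. The targets of XBP1 and ATF6 had 14 of 26 higher and 1 lower with 4HBP, and 8 and 7 in controls, or 13 and 7 higher among the 25 that also passed the filter on low counts in proliferation medium. Among the 10 interferon-stimulated genes that did, 4 were lower with 4HBP and 2 in controls. Among all 15920 genes tested, 33.3% were higher and 33.8% lower with 4HBP, and 30.8% and 30.6% in controls (edgeR, adjusted p under 0.05). Apart from the genes that passed the interaction test above, these counts are set side by side, and their difference was not tested.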
